A study of Homo sapiens with 47 samples.

Results

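PC-3 cells kept for 24 h at 0% O2 were compared with their own normoxia control, using 4 of the 47 small RNA libraries of the series. The members were taken by their labels: the 2 PC-3 libraries labelled anoxia (0% O2) and the 2 PC-3 normoxia libraries that belong to that level, each pair sharing a replicate number. PC-3 is a prostate cancer line that the labels trace to a bone metastasis, and the normoxia control was kept in 95% air. All 4 libraries came from exponentially growing cells in RPMI-1640 with 10% fetal bovine serum. The labels name no transgene or drug for either group, and the model is 1 cell line in culture. The other PC-3 libraries, at 5, 2, 1, 0.5 and 0.2% O2 with their own controls, gave the estimate of spread and the comparison with milder hypoxia. The 22Rv1 libraries at 0% O2 gave the comparison with another prostate cancer line. Each treatment was done in duplicate per the labels, which do not say whether duplicates were separate cultures. The p-values therefore reflect the variation among these samples, and that variation may be technical.

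A microRNA (miRNA) is cut from a hairpin precursor by Drosha in the nucleus and by Dicer in the cytoplasm. The arm that stays in Argonaute, usually the more abundant, guides repression of messenger RNAs that pair with its seed, bases 2 to 8, and the partner arm is mostly degraded. Without O2 the hydroxylases that mark hypoxia-inducible factor (HIF) for destruction cannot act, and HIF then activates its target genes. The best known miRNA among those targets is miR-210, which represses iron-sulfur cluster assembly and mitochondrial respiration. PC-3 cells lack functional p53 and express little androgen receptor.

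The sequences below are of mature miRNAs that changed in anoxia and have a RefSeq entry (GRCh38.p14), written 5′ to 3′ with the seed in capitals. They are shown because several changes ran in opposite directions between close relatives. These 9 rose, and miR-193a-3p is set beside miR-193b-3p as its seed partner that was not called.
miR-210-3p: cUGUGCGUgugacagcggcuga
miR-210-5p: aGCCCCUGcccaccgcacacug
miR-193b-3p: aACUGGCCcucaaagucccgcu
miR-193a-3p: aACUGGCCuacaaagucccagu
miR-26b-3p: cCUGUUCUccauuacuuggcu
miR-125a-3p: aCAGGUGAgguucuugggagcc
miR-27a-5p: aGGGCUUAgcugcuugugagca
miR-181d-5p: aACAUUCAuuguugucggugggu
miR-181c-3p: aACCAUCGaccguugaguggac
miR-182-5p: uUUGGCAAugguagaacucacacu

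The following miRNAs fell, and miR-17-5p is added as a seed partner of miR-20a-5p that was not called.
miR-92a-1-5p: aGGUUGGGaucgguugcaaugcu
miR-20a-5p: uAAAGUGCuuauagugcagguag
miR-17-5p: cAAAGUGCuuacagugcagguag
miR-25-5p: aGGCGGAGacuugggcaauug
miR-128-1-5p: cGGGGCCGuagcacugucugaga
miR-29b-1-5p: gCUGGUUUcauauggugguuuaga
miR-222-5p: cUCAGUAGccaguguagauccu
miR-27b-5p: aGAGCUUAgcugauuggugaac
miR-181a-3p: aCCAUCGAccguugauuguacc
miR-4521: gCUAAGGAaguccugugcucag
miR-1260a: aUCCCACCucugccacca
miR-1260b: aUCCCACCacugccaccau
let-7b-3p: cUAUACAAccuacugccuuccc
miR-27a-5p, which rose, and miR-27b-5p, which fell, share the run GCUUAGCUG from base 4 but differ at 8 of 22 positions, counted from the 5′ end of miR-27a-5p, among them G3A inside the seed. miR-181a-3p, which fell, and miR-181c-3p, which rose, share the 15-base run ACCAUCGACCGUUGA, which starts at base 1 in miR-181a-3p and at base 2 in miR-181c-3p, so their seeds are offset by 1 base. miR-1260a and miR-1260b differ by U9A and by 1 base of length, so the counting could have split reads between them and their values are not independent.

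The 4 libraries held 2611439 to 3423310 counts over the 1006 miRNA entries of the table. In each of them the 5 most abundant miRNAs, led by the growth-promoting miR-21-5p, took 42.2 to 45.0% of the counts. The 2 libraries of a group differed beyond counting noise: chi-square divided by its degrees of freedom was 48.2 between the anoxia libraries and 36.3 between the controls. The line label was checked against markers fixed for each line. PC-3 markers were abundant in all 4 libraries, as for miR-100-5p at 33990 and 30490 CPM (share of a library's counts on a common scale, after TMM scaling) in anoxia and 31650 and 28190 CPM in normoxia. Scaled by library size alone, its median was 30850 CPM over the PC-3 and 0.930 CPM over the 22Rv1 libraries. Values are shares of the miRNA reads in a library, so fewer cells of a type and less RNA per cell cannot be told apart.

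In anoxia, 15 miRNAs rose and 22 fell out of 463 tested (edgeR quasi-likelihood test with the replicate number as block, Benjamini-Hochberg adjusted p below 0.05). That is 3.24% called higher, 4.75% called lower and 7.99% in all. The rises were small, from 1.24-fold to 1.87-fold, and led by miR-193b-3p, miR-30b-3p and miR-210-3p. The falls ran from 1.22-fold to 2.02-fold among miRNAs of at least 20 CPM, led by miR-92a-1-5p, miR-4521 and miR-128-1-5p. All 37 called miRNAs moved the same way in both pairs, and their anoxia and normoxia values did not overlap. Non-overlap in 1 direction is common with 2 libraries a group: it held for 201 of the 463 tested (43.4%). The median difference of all 463 on the log2 scale was 0.01. Without the replicate block 13 miRNAs were called (5 higher, 8 lower), all among the 37. With the authors' scaling factors in place of TMM, which moved the median of all miRNAs to -0.12, 3 were called higher (miR-193b-3p, miR-210-3p and miR-26b-3p) and 27 lower. The number called also rested on both pairs, and most on replicate 1. With either library of a pair left out, the other pair alone sets the difference. The 2 omissions of a pair therefore give nearly the same estimate. Fewer miRNAs were called in these fits, and fewest without a library of replicate 1.

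**Figure D1:**
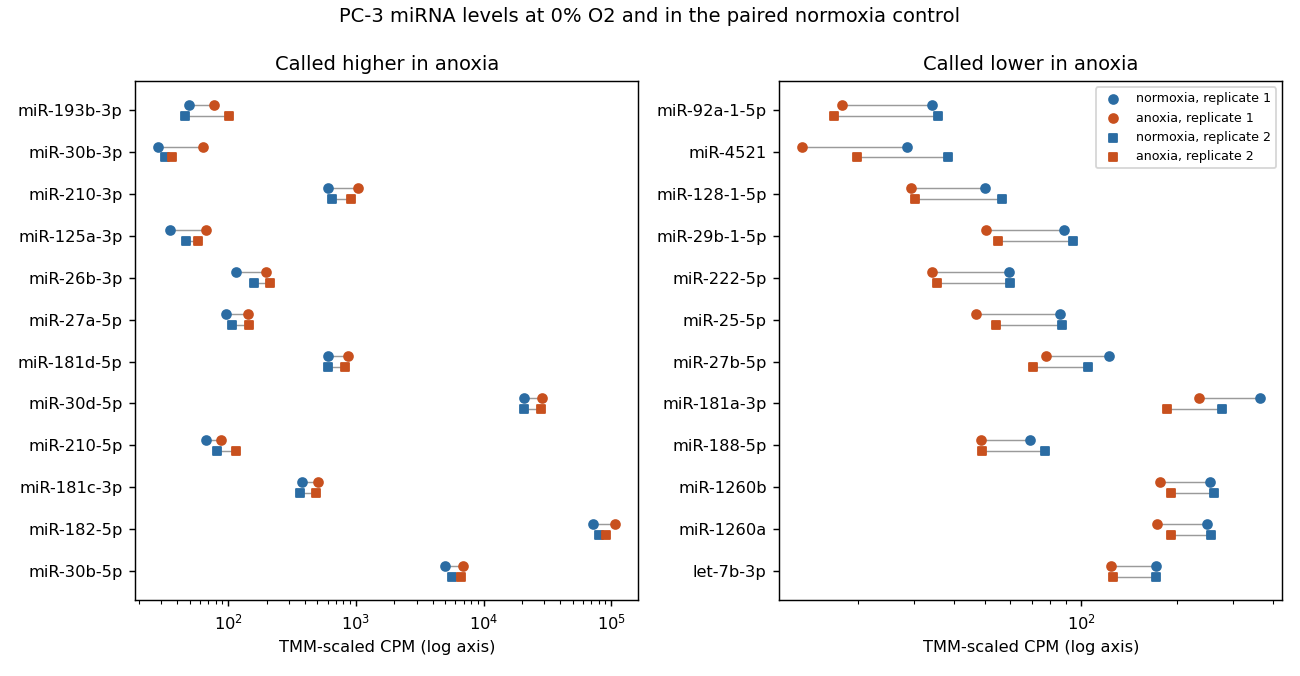
TMM-scaled CPM (log axis) of the miRNAs with the largest called differences and a mean of at least 20 CPM, in the 2 anoxia libraries (orange) and the 2 normoxia libraries (blue) of PC-3. Circles are replicate 1, squares replicate 2, and a line joins a pair; for every miRNA drawn both pairs shift the same way, and miR-30b-3p shows the least equal pairs.

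Both arms of miR-210 rose. The hairpin lies at chr11:568089-568198 (GRCh38.p14, minus strand), in an intron of the long noncoding RNA gene MIR210HG in GENCODE 29. miR-210-3p, the guide arm, was at 1039 and 915 CPM in anoxia and 607 and 649 CPM in normoxia. The anoxia libraries thus lay 1.55-fold higher, a log2 difference of 0.63 (SE 0.090, adjusted p = 0.000153). miR-210-5p, the partner arm, was at 87.9 and 115 CPM in anoxia and 67.2 and 81.7 CPM in normoxia, a log2 difference of 0.45 (SE 0.14, adjusted p = 0.0447). Its anoxia replicate 1 stood close to normoxia replicate 2, and its call was lost without the block (adjusted p = 0.273) and with the authors' factors (adjusted p = 0.235).

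The promoter of MIR210HG is printed because HIF binds the core letters ACGTG and both miR-210 arms were called in anoxia. The window runs from 250 bases before to 50 bases after the RefSeq start, at chr11:568408-568707 (GRCh38.p14, minus strand), with ACGTG in capitals.
MIR210HG: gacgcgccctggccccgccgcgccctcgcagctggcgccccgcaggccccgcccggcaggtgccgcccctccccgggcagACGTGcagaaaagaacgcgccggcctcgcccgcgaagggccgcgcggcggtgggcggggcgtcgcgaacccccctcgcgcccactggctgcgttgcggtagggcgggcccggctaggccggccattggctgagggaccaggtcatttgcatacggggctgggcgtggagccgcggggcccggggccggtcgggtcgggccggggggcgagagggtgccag
The letters occur 1 time, 170 bases before the start on the strand of the gene, in a search of both strands. ACGTG on either strand was found in 7518 of 35116 promoter windows of this length (21.4%), so a match is common and is a description only.

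Among the other miRNAs that rose, miR-193b-3p, reported to restrain the cell cycle through cyclin D1, moved furthest. Its hairpin lies at chr16:14303967-14304049 in an intron of MIR193BHG, and all positions here are GRCh38.p14. It was at 77.1 and 102 CPM in anoxia and 49.1 and 46.3 CPM in normoxia. Both anoxia values lay above both controls, with a log2 difference of 0.91 (SE 0.15, adjusted p = 0.000261). The call of miR-193b-3p was lost without the block (adjusted p = 0.104) and held with the authors' factors (adjusted p = 0.0012). Its seed partner miR-193a-3p, with much the same predicted targets, was at 1256 and 1460.3 CPM in anoxia and 1380.3 and 1524 CPM in normoxia, a log2 difference of -0.10 (SE 0.085, adjusted p = 0.63). The partner arm miR-193a-5p differed by -0.44 (adjusted p = 0.0709) and was not called, and 1 of 6 tested members of the miR-193 and miR-365 clusters was called higher, none lower, with a median of 0.004.

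The miR-30 family, whose miR-30b and miR-30d arise from neighbouring hairpins, had 3 of 11 tested members called higher and none lower, and a family median of -0.01. miR-30d-5p was the most abundant of the 3 at 28538 and 27977 CPM in anoxia and 20785 and 20563 CPM in normoxia. The groups were well separated, with a log2 difference of 0.45 (SE 0.069, adjusted p = 0.000261). The call of miR-30d-5p was lost without the block (adjusted p = 0.119) and with the authors' factors (adjusted p = 0.0596). It was also lost with the 4 libraries fitted alone without the block. Its log2 difference stayed between 0.32 and 0.49 over all changes of the fit and omissions of 1 library. miR-30b-5p was at 6931 and 6687 CPM in anoxia and 4952 and 5673 CPM in normoxia, a log2 difference of 0.36 (SE 0.082, adjusted p = 0.00518). Its partner arm miR-30b-3p was at 63.8 and 36.6 CPM in anoxia and 28.2 and 31.8 CPM in normoxia. Most of that difference came from replicate 1, where the pair differed by 1.16 on the log2 scale against 0.20 in replicate 2 (adjusted p = 0.0156 over both). miR-30d-3p differed by 0.33 (adjusted p = 0.0637).

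miR-26b-3p, the scarcer arm of a hairpin in an intron of CTDSP1 (chr2:218402646-218402722), was at 199 and 214 CPM in anoxia and 115 and 158 CPM in normoxia. The lowest anoxia value stood above the highest control, and the log2 difference was 0.61 (SE 0.10, adjusted p = 0.000505). miR-125a-3p, the partner of the abundant miR-125a-5p, was at 67.5 and 58.3 CPM in anoxia and 35.0 and 46.6 CPM in normoxia, a log2 difference of 0.62 (SE 0.17, adjusted p = 0.0209). Its pair differences were 0.94 in replicate 1 and 0.32 in replicate 2. The call of miR-125a-3p was lost without the block (adjusted p = 0.0916), with the authors' factors (adjusted p = 0.0725) and in DESeq2 (adjusted p = 0.116). miR-182-5p, from the miR-183, miR-96 and miR-182 cluster that represses FOXO factors, was the most abundant miRNA that rose. It reached 107879 and 91416 CPM in anoxia and 72632 and 79688 CPM in normoxia, with a log2 difference of 0.38 (SE 0.080, adjusted p = 0.003). Replicate 1 carried more of it than replicate 2, with pair differences of 0.57 and 0.20.

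let-7 guide arms, known as repressors of RAS and HMGA2, were counted apart from their partner arms. Of the 9 tested miRNAs with the seed GAGGUAG, 2 were called higher and none lower, over a range of -0.12 to 0.34. let-7i-5p was at 11635 and 9394 CPM in anoxia and 8745 and 7774 CPM in normoxia, a log2 difference of 0.34 (SE 0.074, adjusted p = 0.00349). let-7f-5p was at 26389.7 and 20298 CPM in anoxia and 18892 and 18399 CPM in normoxia, a log2 difference of 0.31 (SE 0.097, adjusted p = 0.0478). Neither call held without the block (adjusted p = 0.122 for let-7i-5p and 0.169 for let-7f-5p). Both were also lost with the authors' factors (adjusted p = 0.287 and 0.418). let-7a-5p, the most abundant member, overlapped between groups at 99436 and 71949 CPM in anoxia and 84684 and 74011 CPM in normoxia. The 4 tested 3p arms with the seed UAUACAA all had negative differences, from -0.46 to -0.09. Of these let-7b-3p was called, at 124 and 126 CPM in anoxia and 172 and 172 CPM in normoxia, and its log2 difference was -0.46 (SE 0.10, adjusted p = 0.00414). That call was lost without the block (adjusted p = 0.47). The 3p arms of the other let-7 hairpins with both arms tested went both ways. let-7g-3p (0.31), let-7e-3p (0.13) and let-7d-3p (0.07) were above 0, and let-7i-3p (-0.22) and let-7f-2-3p (-0.17) below. Over let-7 and miR-98 together, 2 of 19 tested entries rose and 1 fell, with a median of 0.03.

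miR-320a, whose precursor is made without Drosha, was at 1397 and 1494 CPM in anoxia and 1107 and 1181 CPM in normoxia, a log2 difference of 0.34 (SE 0.090, adjusted p = 0.0159). It was the 1 of 6 tested Drosha-independent miRNAs to be called. Its call was lost without the block (adjusted p = 0.122), with library size alone (adjusted p = 0.0919) and with the authors' factors (adjusted p = 0.368). All 6 listed miRNAs had positive differences, with a median of 0.34 against 0.01 over all tested. Among them were miR-320b at 0.39 (adjusted p = 0.119) and the mirtron miR-877-5p at 0.28 (adjusted p = 0.219). miR-320b and miR-320d, also listed, share all but the last bases of their sequence. The counting could have split reads between them, so the 6 values are not independent.

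Among the miRNAs that fell, scarce partner arms of abundant guides were frequent. miR-92a-1-5p, from the MYC-driven miR-17 to miR-92a cluster in an exon of MIR17HG (chr13:91351314-91351391), was at 17.8 and 16.8 CPM in anoxia and 34.1 and 35.7 CPM in normoxia. Both anoxia values lay well below both controls, and the log2 difference was -1.01 (SE 0.20, adjusted p = 0.00235). miR-128-1-5p, partner of miR-128-3p in an intron of R3HDM1 (chr2:135665397-135665478), was at 29.3 and 30.1 CPM in anoxia and 50.0 and 56.3 CPM in normoxia, a log2 difference of -0.84 (SE 0.17, adjusted p = 0.00235). miR-222-5p, partner of the CDKN1B repressor miR-222-3p in an intron of MIR222HG (chrX:45747015-45747124), was at 34.1 and 35.4 CPM in anoxia and 59.5 and 59.9 CPM in normoxia, a log2 difference of -0.78 (SE 0.16, adjusted p = 0.00281).

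miR-29b-1-5p comes from a hairpin at chr7:130877459-130877539, in an exon of LINC-PINT, whose other arm, miR-29b-3p, represses collagens and DNA methyltransferases. It was at 50.4 and 54.9 CPM in anoxia and 88.4 and 94.2 CPM in normoxia. The groups were far apart relative to their spread, with a log2 difference of -0.79 (SE 0.13, adjusted p = 0.000261). The guide miR-29b-3p differed by -0.10 (adjusted p = 0.727), and miR-29b-1-5p was the 1 of 7 tested miR-29 family members called, against a family median of -0.10. miR-25-5p, from the cluster in an intron of the replication gene MCM7 (chr7:100093560-100093643), was at 46.7 and 54.1 CPM in anoxia and 85.9 and 87.0 CPM in normoxia, a log2 difference of -0.78 (SE 0.14, adjusted p = 0.000999). The calls of miR-92a-1-5p, miR-128-1-5p, miR-222-5p, miR-29b-1-5p, miR-25-5p and miR-210-3p held under every change of block, scaling, filter and test run. Among the 37 called miRNAs these were the 6 to do so. Leaving out 1 library is not among these changes, and these calls did not hold through all such omissions.

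The miR-17 to miR-92a cluster and its paralogues had 3 of 19 tested members called lower, none higher, and a median of -0.14. miR-20a-5p, a guide of this cluster, was at 1411 and 1236 CPM in anoxia and 1781 and 1766 CPM in normoxia, a log2 difference of -0.43 (SE 0.089, adjusted p = 0.003). All 5 tested miRNAs with its seed AAAGUGC had negative differences, from -0.43 to -0.05, but the other 4 were not called, including miR-17-5p at 1681 and 1605 CPM in anoxia and 1784 and 1796 CPM in normoxia (adjusted p = 0.436) and miR-93-5p at -0.18 (adjusted p = 0.202).

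The paralogous miR-23, miR-27 and miR-24 clusters had 1 call in each direction. miR-27a-5p, from a hairpin at chr19:13836440-13836517, was at 142 and 147 CPM in anoxia and 96.3 and 107 CPM in normoxia, a log2 difference of 0.51 (SE 0.13, adjusted p = 0.0127). miR-27b-5p, whose hairpin lies in an intron of C9orf3 (chr9:95085445-95085541), was at 77.5 and 70.9 CPM in anoxia and 123 and 105 CPM in normoxia, a log2 difference of -0.62 (SE 0.14, adjusted p = 0.0048). The direction of these related arms was thus opposite in both pairs. Among the 10 tested members 1 rose and 1 fell, with a median of 0.06, and the guide miR-27a-3p differed by 0.15 (adjusted p = 0.336).

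The miR-181 family, regulators of lymphocyte development and of several tumour genes, had calls in both directions. From the hairpins in an intron of NANOS3 (chr19:13874875-13875011 for miR-181d), miR-181d-5p rose and was at 864 and 821 CPM in anoxia and 609 and 607 CPM in normoxia, a log2 difference of 0.47 (SE 0.082, adjusted p = 0.000572). miR-181c-3p rose from the same intron and was at 509.7 and 489 CPM in anoxia and 376 and 366 CPM in normoxia, a log2 difference of 0.43 (SE 0.092, adjusted p = 0.00349). In an intron of MIR181A1HG (chr1:198859044-198859153), miR-181a-3p fell, with 234 and 187 CPM in anoxia and 363 and 277 CPM in normoxia and a log2 difference of -0.60 (SE 0.15, adjusted p = 0.0137). miR-181b-3p fell too but was scarce, with 12 and 13 counts in anoxia and 42 and 32 in normoxia. In all 2 of 8 tested members rose and 2 fell, with a median of 0.06, and the guide miR-181a-5p differed by 0.07 (adjusted p = 0.749).

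The remaining falls were spread over many loci. miR-4521, which has no host gene in GENCODE 29, was at 13.3 and 19.8 CPM in anoxia and 28.5 and 38.2 CPM in normoxia, a log2 difference of -1.01 (SE 0.25, adjusted p = 0.0101). miR-1260a and miR-1260b, which resemble transfer RNA fragments, fell by almost the same amount, -0.47 and -0.48. miR-188-5p, in an intron of CLCN5, differed by -0.59 (SE 0.15, adjusted p = 0.0156) and was the 1 of 11 tested members of that intronic cluster to be called, with a cluster median of -0.11. Smaller falls were called for miR-191-3p (-0.44), the partner of the second most abundant miRNA of these cells, miR-200a-5p (-0.41), miR-335-3p (-0.36), from an intron of MEST, miR-424-3p (-0.32) and miR-454-3p (-0.29).

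The 4 called miRNAs below 20 CPM all fell: miR-181b-3p, miR-1247-3p, miR-551b-5p and miR-4461. miR-1247-3p and miR-551b-5p were named after their values were seen. miR-1247-3p, from a hairpin in an exon of DIO3OS, had 8 and 17 counts in anoxia against 48 and 70 in normoxia, a log2 difference of -1.86 (SE 0.38, adjusted p = 0.00281). miR-551b-5p had 13 and 16 counts in anoxia against 49 and 57 in normoxia, a log2 difference of -1.50 (SE 0.33, adjusted p = 0.0036). miR-4461 rested on 3 and 2 counts in anoxia against 12 and 22 in normoxia, and no fold is given for it.

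The 2 arms of a hairpin were compared in anoxia. For 126 hairpins both arms were tested, paired by the precursor the count table names, and the major arm was taken as the one with more CPM in the 10 PC-3 normoxia libraries of the other O2 levels. Minor arms were called lower for 12 of 126 (9.52%) and higher for 6, and major arms were called lower for 3 (2.38%) and higher for 6, beside 4.75% called lower among all tested. The minor arm had the lower log2 difference in 87 of 126 hairpins, in 84 by replicate 1 and in 76 by replicate 2. The median log2 difference was -0.08 for minor and 0.05 for major arms. With library size alone or the authors' factors the major median turned negative, to -0.04 and -0.08; a change of scaling shifts both arms of a hairpin alike. Leaving out either library of replicate 1 left no minor arm called lower and the minor arm below its partner in 76 hairpins, leaving out either of replicate 2 left 3 and 83, and without the block 5 minor arms were called lower. Minor arms of at least 100 CPM, where low counts matter less, had 6 of 37 called lower and 3 higher, and major arms below 1000 CPM had 2 of 69 called lower and 1 higher. Entries in the lowest, middle and highest of 3 equal groups by CPM had medians of 0.004, -0.01 and 0.03. For the mean effect at the 5 milder O2 levels of PC-3, the median was -0.06 for minor and 0.01 for major arms. The lower median of minor arms was thus not particular to anoxia. These are descriptions without a test.

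In 2 hairpins both arms were called, mir-210 and mir-30b, and in both the arms rose together. Few arms of either kind were called, so few joint calls would arise in any case. Their number therefore does not show whether arms move together. In 16 hairpins the minor arm alone was called and in 7 the major arm alone. mir-25 shows the usual form of the first kind: miR-25-3p differed by -0.02 (adjusted p = 0.961) and miR-25-5p by -0.78. mir-182 shows the second: miR-182-5p rose and miR-182-3p differed by 0.01 (adjusted p = 0.991). Over the 126 hairpins Pearson's r between the log2 differences of the arms was 0.285, where arms share library and scaling, and 70 had the same sign.

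**Figure D2:**
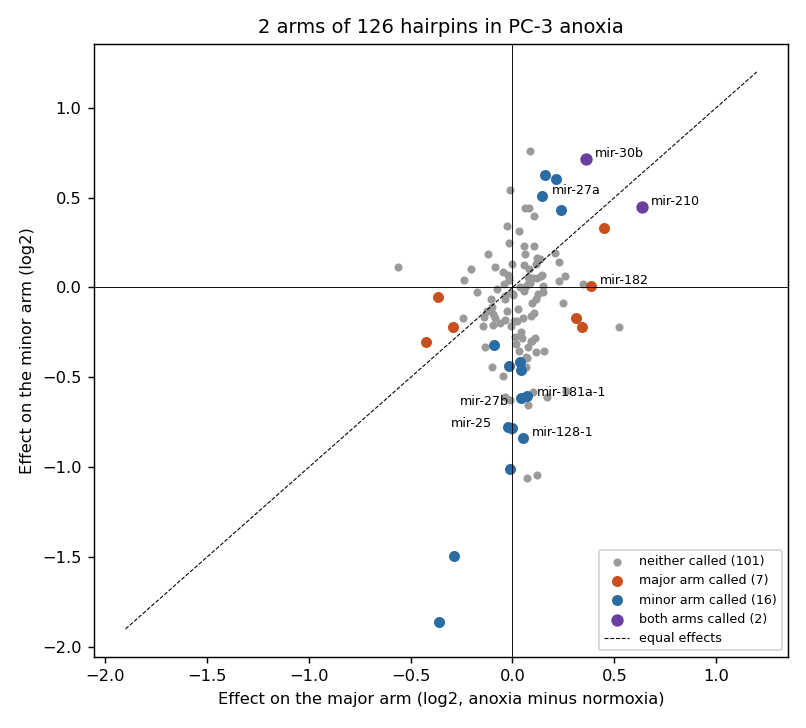
Log2 difference (anoxia minus normoxia) of the minor arm against that of the major arm for 126 hairpins, 1 point each, coloured by which arm was called; the dashed line marks equal differences. Points with the minor arm alone called lie between -0.36 and 0.24 on the horizontal axis and reach down to -1.86 on the vertical axis, and 87 of the 126 lie below the dashed line.

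Anoxia was then set against the 5 milder O2 levels of the same line, none of which shares a library with it. The mean effect of those 5 levels was called for 78 of 463 miRNAs (16.8%), 36 higher (7.78%) and 42 lower (9.07%). Level by level, 2 miRNAs were called at 5% O2 (0.432%), 29 at 2% (6.26%), 15 at 1% (3.24%), 22 at 0.5% (4.75%) and 31 at 0.2% (6.7%). This mean was added after the data were seen. Of the 36 that rose there, 34 had a positive difference in anoxia, 32 in both pairs, and 13 were called. Of the 42 that fell there, 37 had a negative difference in anoxia, 35 in both pairs, and 19 were called. For all 463 the sign was shared by 311, and by 222 in both pairs. The medians in anoxia and over the milder levels were 0.34 and 0.32 for the 36 miRNAs, and -0.36 and -0.26 for the 42. Across the 463 miRNAs, which share the fit and its scaling, Pearson's r was 0.507 and Spearman's rho 0.44.

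**Figure D3:**
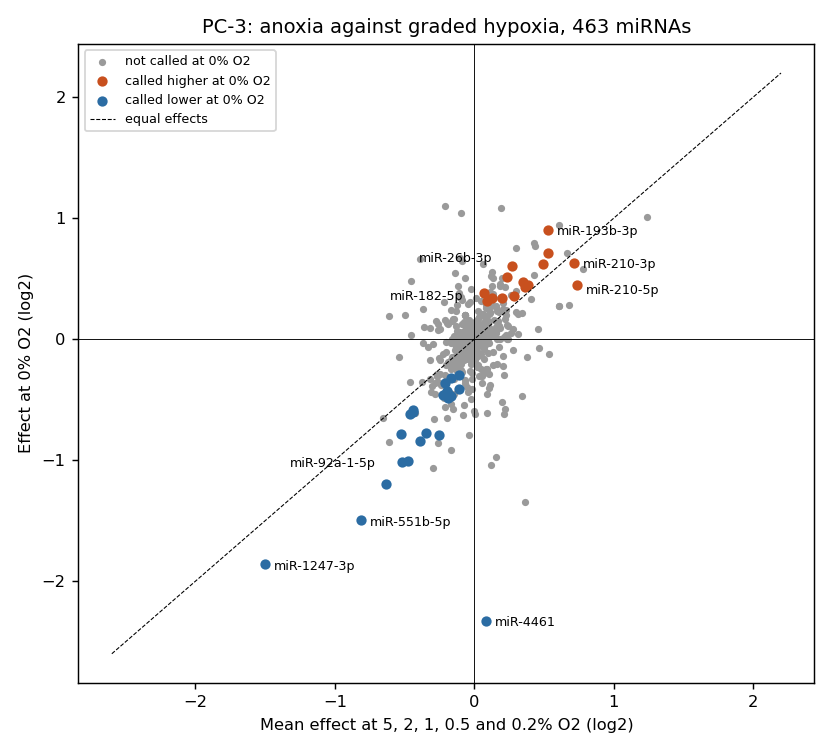
Log2 effect at 0% O2 (vertical axis) against the mean effect at 5, 2, 1, 0.5 and 0.2% O2 (horizontal axis) in PC-3 for 463 miRNAs, with those called at 0% in colour and a dashed line of equal effects. Called miRNAs lie in the lower left and upper right, apart from miR-4461, which sits at -2.33 in anoxia and 0.08 over the other levels.

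Of the 37 miRNAs called in anoxia, 32 were also called, in the same direction, for the mean of the 5 milder levels. The other 5 were miR-182-5p, let-7f-5p, miR-200a-5p, miR-454-3p and miR-4461. In 22 of the 37 the sign was the same at all 5 levels, and in 35 at 4 or more. The exceptions were miR-4461 and miR-200a-5p, with 2 each. Level-by-level signs were not counted over all 463 tested, so no background share stands beside these counts. No other single level had a call for 12 of the 37, namely miR-182-5p, let-7i-5p, let-7f-5p, miR-320a, miR-188-5p, miR-1260a, miR-1260b, miR-191-3p, miR-200a-5p, miR-424-3p, miR-454-3p and miR-4461.

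The difference itself was tested, and no miRNA was called as distinct in anoxia. Against the mean effect at 0.5 and 0.2% O2, 0 of 463 were called by edgeR's quasi-likelihood test and 0 by DESeq2, with 27 at an unadjusted p below 0.05 in edgeR and a smallest adjusted p of 0.401. Against the mean of all 5 milder levels, 0 of 463 were called by either tool, with 35 at an unadjusted p below 0.05 in edgeR and a smallest adjusted p of 0.225. With 2 libraries a group the intervals stay wide, so a missed threshold does not show that the levels act alike.

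For miR-210 the anoxia effect was below that of the nearest levels, without passing the adjusted test. miR-210-3p had log2 effects of 0.44, 0.61, 0.70, 0.92 and 0.92 at 5, 2, 1, 0.5 and 0.2% O2 and of 0.63 at 0%. Its anoxia effect minus the mean at 0.5 and 0.2% O2 was -0.29 (95% interval -0.51 to -0.06, adjusted p = 0.644). For miR-210-5p, the same difference was -0.58 (95% interval -0.93 to -0.22, adjusted p = 0.401). Another miRNA with a small p was miR-182-5p, whose effects were 0.15, 0.13, -0.16, 0.15 and 0.07 at the milder levels and whose anoxia effect exceeded their mean by 0.32 (95% interval 0.14 to 0.50, adjusted p = 0.225). miR-29b-1-5p had effects of 0.04, -0.01, -0.10, -0.62 and -0.57, and its anoxia effect differed from their mean by -0.54 (95% interval -0.82 to -0.26, adjusted p = 0.225). miR-193b-3p had effects of 0.48, -0.08, 0.65, 0.67 and 0.91 at the milder levels, with the highest at 0.2% O2 and a similar value of 0.91 at 0%.

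**Figure D4:**
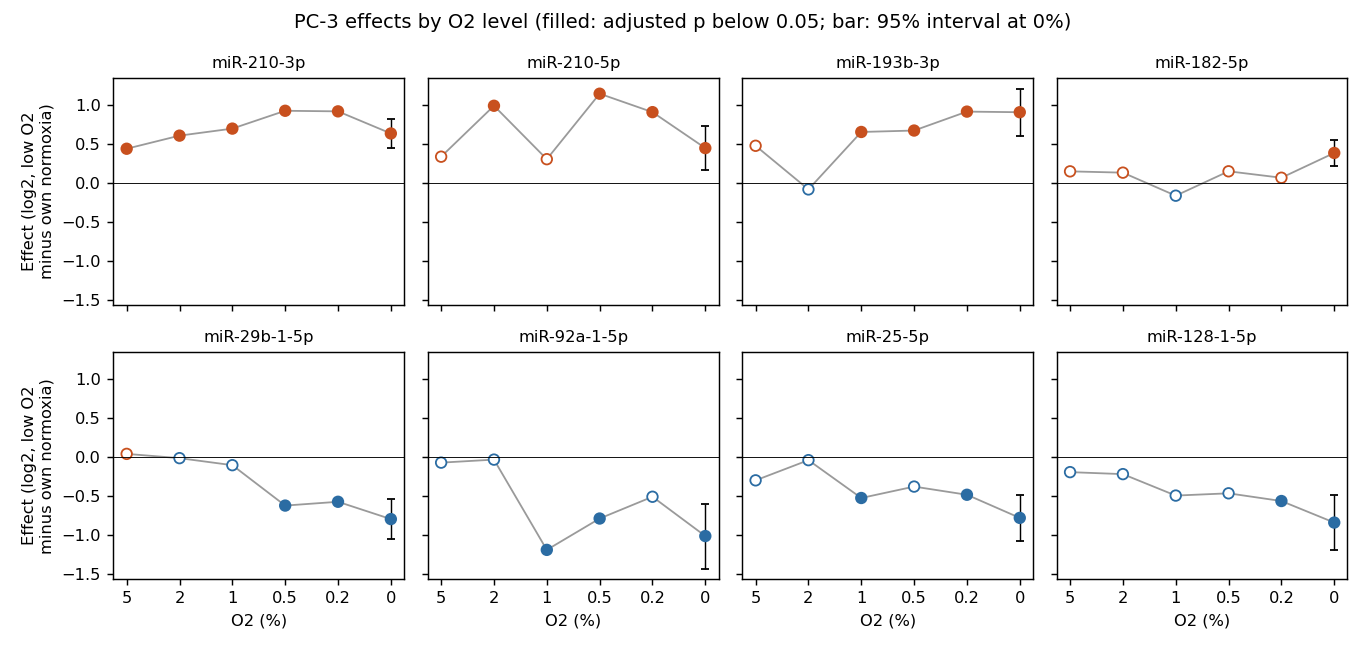
Log2 effect of each O2 level against its own normoxia control in PC-3 for 8 called miRNAs, from 5% on the left to 0% on the right; filled points have an adjusted p below 0.05 and the bar is the 95% interval at 0%. miR-210-3p is filled at all 6 levels and peaks at 0.92, miR-29b-1-5p is filled from 0.5% O2 down, and miR-182-5p is filled at 0% alone.

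Lists of miRNAs with a shared function were described by their counts and medians, beside the 3.24% called higher and 4.75% called lower among all tested. The lists were chosen with earlier results of these data known. A count above those shares is therefore a description and not independent evidence. miRNAs that the literature reports as induced by hypoxia had 10 of 44 tested entries called higher and 4 lower, with a median of 0.08. The list names hairpins and counts both arms. The 4 that fell (miR-181a-3p, miR-181b-3p, miR-27b-5p and miR-424-3p) are the scarcer arms of their hairpins. So are miR-181c-3p, miR-210-5p, miR-26b-3p, miR-27a-5p and miR-30b-3p among the 10 that rose. Of the miRNAs reported to target HIF1A, the O2-regulated subunit of HIF, miR-20a-5p was the 1 of 8 called, and the list median was -0.14. miRNAs linked to the unfolded protein response had 3 of 26 called lower and none higher, 5 of 26 above 0, and a median of -0.08. The 3 were miR-25-5p, miR-222-5p and miR-424-3p, each the scarcer arm of its hairpin. Their major arms miR-25-3p (-0.02), miR-222-3p (-0.004) and miR-424-5p (-0.09) were not called.

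The other family lists held 1 call or none. The miR-15 and miR-16 list had 1 of 12 called lower, miR-424-3p, and a median of -0.09, and miR-503-3p differed by -1.06 at under 6 CPM (adjusted p = 0.149). In the miR-200 family, which maintains epithelial state, miR-200a-5p was the 1 of 7 called, with a median of 0.04. None of 4 tested p53-regulated miRNAs was called, and their median was 0.21, with miR-192-5p at 2141 and 2317 CPM in anoxia and 1878 and 1994 CPM in normoxia (adjusted p = 0.119). None of the 4 arms of miR-33a and miR-33b, which lie in introns of the sterol regulators SREBF2 and SREBF1, was called, with a median of 0.08.

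Lists of cell identity and of other RNA classes were read the same way. In the PC-3 list 1 of 10 entries was called, miR-222-5p, lower, with a median of -0.03, and its main guides did not pass, such as miR-221-3p at -0.14 (adjusted p = 0.454). Among the 3 entries of androgen receptor-positive lines none was called, with a median of 0.09, and their summed level was 809.9 and 1177 CPM in anoxia and 717 and 1002 CPM in normoxia. Blood and serum miRNAs had 0 of 3 called, a median of -0.07 and sums of 278 and 209 CPM against 255 and 251 CPM, nearly all of it miR-486-5p. Neuronal miRNAs had 0 of 6 called, a median of -0.02 and sums of 547 and 454 CPM against 539 and 462 CPM. Stromal and muscle miRNAs had 0 of 6 called but all 6 above 0, a median of 0.33, and sums of 34.8 and 37.0 CPM against 22.7 and 25.9 CPM. miR-143-3p was the most abundant of them, at 23.0 and 12.6 CPM in anoxia and 15.3 and 11.7 CPM in normoxia, and miR-199a-3p reached 4.19 CPM at most. miR-199a-3p and miR-199b-3p have identical counts in every library. The 6 values are therefore not independent, and the sums count those reads more than once. miR-145-5p and miR-199a-5p were at 0 to 0.371 CPM in the 4 libraries. The part of such RNA in other results was not tested.

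Entries that overlap or resemble fragments of other RNA classes had 4 of 9 tested members called lower and none higher, with a median of -0.30. The 4 were miR-4461, miR-4521 and the look-alike pair miR-1260a and miR-1260b. The list summed to 939.7 and 1090 CPM in anoxia against 1242 and 1314 CPM in normoxia, so the groups did not overlap, and the part of RNA quality in this was not tested.

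22Rv1 cells, another prostate cancer line and one that expresses the androgen receptor, were also kept at 0% O2 with 2 libraries and 2 controls of their own. In a joint fit of both lines, 70 of 613 miRNAs were called in 22Rv1 anoxia (11.4%), 44 higher (7.18%) and 26 lower (4.24%), and 20 in PC-3 anoxia. A line difference was called for 19 of 613 (3.1%). In 5 of them (0.816%) the PC-3 effect was the more positive, and in 14 (2.28%) the 22Rv1 effect was. CPM in this comparison come from the joint scaling and differ slightly from those above. Without the replicate block 8 differences were called.

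miR-26b-3p moved in opposite directions. It was at 229 and 250.1 CPM in PC-3 anoxia against 135 and 187 in its control, and at 90.8 and 111 CPM in 22Rv1 anoxia against 163 and 220.4. The PC-3 effect of 0.59 and the 22Rv1 effect of -0.92 differed by 1.51 (95% interval 1.12 to 1.90, adjusted p = 6.39e-07). miR-181c-3p also had effects of opposite sign, 0.41 in PC-3 and -0.35 in 22Rv1, a difference of 0.75 (95% interval 0.33 to 1.18, adjusted p = 0.0299). That call was lost whenever any of the 8 libraries was left out.

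The 3 arms miR-30b-3p, miR-27a-5p and miR-210-5p had positive effects in both lines, smaller in PC-3. The partner arm miR-210-5p was at 101 and 135 CPM in PC-3 anoxia against 78.8 and 96.5 in its control, and at 368 and 318 CPM in 22Rv1 anoxia against 101 and 73.8. The PC-3 effect was lower by 1.56 (95% interval -2.03 to -1.09, adjusted p = 1.48e-05) on the log2 scale. For miR-27a-5p the effects were 0.49 and 1.93, a difference of -1.44 (95% interval -1.93 to -0.96, adjusted p = 6.46e-05). For miR-30b-3p they were 0.68 and 2.21, a difference of -1.52 (95% interval -2.06 to -0.99, adjusted p = 0.000114). miR-210-3p, in contrast, had effects of 0.61 and 1.11, and their difference of -0.50 did not pass (adjusted p = 0.26). miR-193b-3p had 0.88 in PC-3 and 0.13 in 22Rv1, and that difference did not pass either (adjusted p = 0.217).

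**Figure D5:**
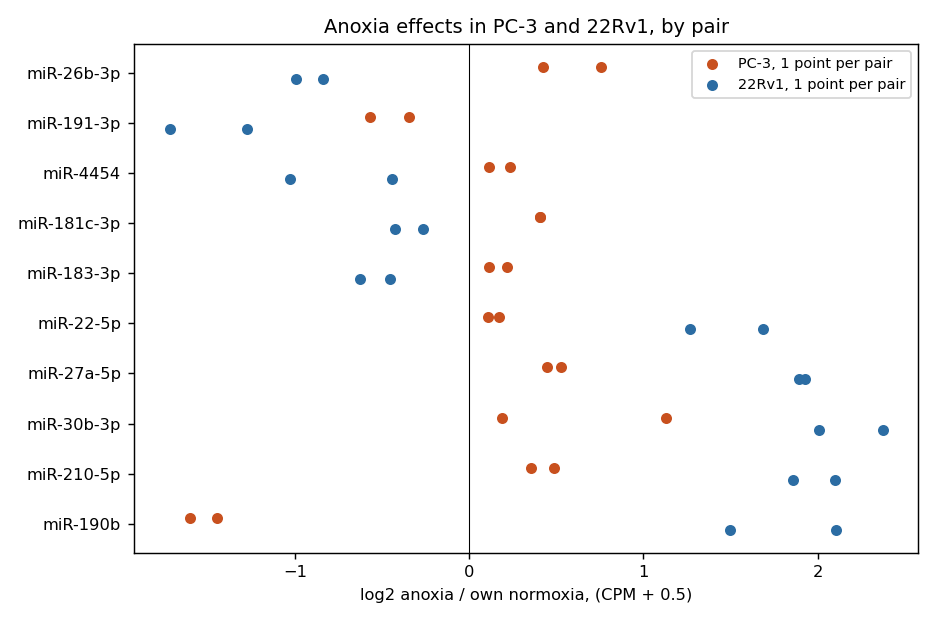
Log2 ratio of anoxia to its own normoxia control (CPM + 0.5) in PC-3 (orange) and 22Rv1 (blue), 1 point per pair, for the miRNAs with the largest called differences in each direction among those with a mean of at least 20 CPM. miR-26b-3p lies above 0 in both PC-3 pairs and below 0 in both 22Rv1 pairs, and miR-210-5p lies above 0 in all 4 pairs with the 22Rv1 points further out.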

How the data were processed

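Small RNA libraries (TruSeq Small RNA kit, miRNeasy RNA) of PC-3 cells at 0% O2 and their normoxia controls were analysed, with 20 further PC-3 and 23 22Rv1 libraries for spread and comparison. The authors deposited read counts for 1006 mature miRNA entries and a second table of CPM scaled by the authors, which served here for their scaling factors. FastQC and hg19 are named per the submitters' processing notes, and which aligner and counter ran is not given in the sources used here. Library totals were 2611439 to 3423310 counts in the 4 libraries, which limits precision for scarce miRNAs.

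Tests on the counts used edgeR 4.0.16 in R 4.3.3: at least 5 CPM in at least 2 PC-3 libraries (463 miRNAs; 613 over both lines), TMM scaling, and robust quasi-likelihood fits with 1 term for each of 12 pairs (O2 level and replicate number) and 1 effect per level, leaving 6 residual degrees of freedom. Tests were two-sided with Benjamini-Hochberg adjustment over all tested miRNAs, called below 0.05. Same-numbered libraries deviated together at every level in PC-3 (correlations 0.301 to 0.665; 0.415 at 0% O2), so the numbers were taken to pair the samples. Alternatives were no block, 1 block term per replicate, other scalings and filters, DESeq2 1.42.0, the 4 libraries alone and leaving out each library. Sequences and positions are RefSeq GRCh38.p14, matched by name for 411 of 463 miRNAs, and host genes GENCODE 29.

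Members and the 22 lists were chosen with earlier results of these data known. miRNAs were named by rule: up to 12 called per direction by size with at least 20 CPM, both miR-210 arms, the 5 most abundant, up to 4 per list by smallest p, and up to 5 per direction for differences; miR-1247-3p, miR-551b-5p, miR-335-3p and miR-454-3p were added after their values were seen.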

Additional observations from a re-analysis of the deposited data

Results flagged for a closer look

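The anoxia effects of 19 miRNAs differed between PC-3 and 22Rv1 by the test of the difference in the joint edgeR fit. Values are the PC-3 minus the 22Rv1 log2 effect. The 5 more positive in PC-3 were miR-26b-3p (1.51), miR-191-3p (1.06), miR-4454 (0.88), miR-181c-3p (0.75) and miR-183-3p (0.71). Of the 14 more positive in 22Rv1, the 5 largest with a mean of at least 20 CPM were miR-190b (-3.73), miR-210-5p (-1.56), miR-30b-3p (-1.52), miR-27a-5p (-1.44) and miR-22-5p (-1.35). The other 9 were miR-181a-3p (-1.34), miR-148a-5p (-1.21), miR-21-3p (-1.15), miR-30d-3p (-0.95), miR-181a-2-3p (-0.93), miR-1260a (-0.86) and miR-671-3p (-0.68), and the scarce miR-1290 (-4.25) and miR-4671-3p (-2.73) at 3.80 and 5.49 CPM. Among these 9, the call of miR-21-3p alone held under all alternatives and omissions of 1 library.

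miR-191-3p had negative effects in both lines, -0.46 in PC-3 and -1.52 in 22Rv1. miR-22-5p was at 31.9 and 33.0 CPM in PC-3 anoxia against 29.5 and 29.3 in its control, and at 55.2 and 57.7 CPM in 22Rv1 anoxia against 22.7 and 17.6. miR-183-3p was at 1445 and 1860.2 CPM in PC-3 anoxia against 1335 and 1598 in its control, and at 394 and 425 CPM in 22Rv1 anoxia against 607 and 583. miR-190b was at 0.851 and 0.892 CPM in PC-3 anoxia against 3.6 and 3.29 in its control, and at 93.7 and 86.2 CPM in 22Rv1 anoxia against 32.9 and 19.7, so its PC-3 values are a few counts each. miR-4454 was at 24.7 and 388 CPM in PC-3 anoxia against 20.9 and 358 in its control, and at 99.4 and 57.7 CPM in 22Rv1 anoxia against 135 and 118; in PC-3 it splits by replicate and not by O2. The calls of miR-26b-3p, miR-190b, miR-210-5p and miR-27a-5p held under all 8 alternatives and all 8 omissions of 1 library, and that of miR-30b-3p was lost in 1 omission. The calls of miR-181c-3p and miR-183-3p were lost in all 8 omissions, and those of miR-4454 in 6, of miR-191-3p and miR-22-5p in 4 each.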

How the results depend on the processing

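None of the 37 called miRNAs changed sign under any alternative. Without the replicate block 13 miRNAs were called in PC-3 anoxia (5 higher, 8 lower), 37 for the mean of the 5 milder levels (20 higher, 17 lower) and 8 (1 and 7) for the line difference. With 1 shared block term per replicate 14 were called lower in anoxia, and 12 for the line difference. Library size alone gave 37 lower in anoxia and 72 lower for the milder levels, with arm medians of -0.042 (major) and -0.167 (minor); the authors' factors gave 3 higher, with medians of -0.077 and -0.202. DESeq2 called 51 for the mean of the milder levels (22 lower) and 9 more positive in 22Rv1. The 4 libraries fitted alone gave 66 calls with the block (23 higher, 43 lower) and 7 without (1 higher, 6 lower).

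Leaving out 1 library gave 2 to 14 calls in anoxia (2 to 10 higher, 0 to 4 lower) and 8 to 13 for the line difference; the spread of a lone library is taken from the rest of the fit. 1 miRNA then passed against the mean of the milder levels when a replicate 2 library was left out. By pair, the minor arm median was -0.119 in replicate 1 and -0.062 in replicate 2. Of the 37 calls, 27 were shared with DESeq2, 34 with library size and 25 with the authors' factors; 6 held under all alternatives, 1 in all omissions and 0 in both. Over the named miRNAs and alternatives, 1178 values were tallied as unchanged, 236 lost the call and 13 gained it. The unchanged values include those of named miRNAs never called. They also include alternatives of 1 count, that of miRNAs sharing direction with the milder levels.

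Depth limits miRNAs below about 20 CPM, where all 4 calls were falls, and 2 libraries a group limit every comparison. The cause of the dependence on block and scaling was not tested.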

Other observations

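Called miRNAs were compared in sequence composition as a description, over those with a RefSeq entry. The 11 matched miRNAs that rose began with A or U in 9 cases (81.8%), against 9 of 21 (42.9%) of those that fell and 68.6% of all 411 matched. U alone was the first base in 27.3% of those that rose, 14.3% of those that fell and 41.1% of all. The median GC content of those that rose was 54.5%, against 52.4% for those that fell and 50.0% for all. All 3 sets had a median length of 22 bases.

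Of the 5 most abundant miRNAs, miR-182-5p alone was called. miR-21-5p was at 138075 and 123578 CPM in anoxia and 135476 and 122152 CPM in normoxia, and miR-22-3p at 39361 and 39097 CPM against 35942 and 36318 CPM.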
